A study of Arabidopsis thaliana with 96 samples.

Results

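The genes described here are 36 WRKY transcription factor genes, out of the 27444 nuclear protein-coding genes that RefSeq annotates on the reference genome. They were taken as a list of loci by name and not by any measured value. The list was chosen, however, with earlier results of these data known. A further 36 genes with a WRKY symbol or synonym were held apart as other WRKY genes. WRKY genes encode plant transcription factors that carry the WRKY domain, a stretch with the WRKYGQK heptapeptide and a zinc finger that binds a DNA element called the W-box, whose core reads TTGAC. The family is divided by domain number and zinc finger type into groups I, II and III, with group II divided further into IIa to IIe. Many members act in immunity, downstream of receptor kinases, MAP kinase cascades and salicylic acid, and others act in leaf senescence, abiotic stress and development. WRKY genes often carry W-boxes in their own promoters, through which the family regulates itself and its relatives.

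Accessibility was measured by ATAC-seq, in which the transposase Tn5 cuts and tags open chromatin, in leaf nuclei of wild-type *Arabidopsis thaliana* accessions, which are natural inbred lines. All plants grew at 22 degrees Celsius with 16 h of light and 8 h of dark, and plant age was not given in the labels. The 6 accessions used are Ad-0, En-2, Hi, Mt, Og and Col-0, the accession of the reference genome, with 4 peak lists each. A further 4 lists from samples labelled as untreated Col-0, whose file headers name naked DNA, served as the background of the method. The series holds 96 lists, and the other 68 were not used here because their positions lie on the sequences of each accession. Positions in the Col-0 lists can deviate from the reference by up to 150 bp, and around the 36 genes the local shift ranged from -106 to 92 bp with a median of 17 bp.

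A gene was linked to every peak whose summit lay from 1000 bp upstream of its start to 300 bp past its end, and it was called open in an accession when all 4 lists held such a peak. The pileup is the height of extended tags, that is mapped reads, at the summit, and the normalised pileup is its value per 1000000 tags of the file. The mean depth per file was 1951617 tags in Ad-0, 1485678 in En-2, 2206120 in Hi, 1778078 in Mt, 2414618 in Og, 4671886 in Col-0 and 10928626 in untreated Col-0. The mean number of nuclear peaks per file had another order than depth, with 5751 in Hi, 6226.5 in Ad-0, 11284 in En-2, 14230.5 in Og, 15091 in Col-0 and 20616.5 in Mt. Pileups at summits shared by lists of 1 accession differed by less than sampling noise, with a dispersion index of 0.815 to 0.923 over 36 pairs, against 2.51 to 7.83 over 15 pairs of different accessions. The 4 lists were therefore counted as 1 sample, so an SD below gives the spread over 4 lists and no test between accessions was possible. Accession and library cannot be told apart in this design. In bulk tissue, fewer cells with an open site and less opening per cell cannot be told apart either. The leaf genes RBCS1A, CAB1, LHCA1 and RCA were open in all 6 accessions and CAB2 in all but Ad-0. Of 4 seed storage and oleosin genes, 0 were open in Ad-0 and Hi. In En-2, Og and Col-0 2 of them were open (50%), beside 28.6%, 36.6% and 40.4% of all genes. In Mt 3 were open (75%), beside 49.6%. The seed genes were thus not closed as a group in these leaf samples.

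The WRKY genes held 58 sites, a site being a group of summits of the 6 accessions linked by gaps of at most 150 bp, and 36 of these sites, at 27 genes, were open in at least 1 accession. The W-box core TTGAC, searched on both strands in the 301 bp centred on the median summit, was present in 27 of the 36 sites (75%), beside 52.8% of all 17123 sites open in at least 1 accession. It occurred 2 or more times in 15 sites (41.7%), beside 19.7% of all sites. The longer forms TTGACC and TTGACT, which contain the core, were found in 22 sites (61.1%), beside 35.2%, and 2 or more times in 12 sites (33.3%), beside 9.09%. Among the 22 sites upstream of a gene start the shares were 72.7% for the core and 59.1% for the longer forms, beside 53% and 35.5% of the 8363 upstream sites of all genes. These matches describe the reference sequence and are not evidence of binding.

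Stretches of 8 upstream sites follow, read 5′ to 3′ on the strand of the gene from the RefSeq TAIR10.1 sequence, whose nuclear coordinates are those of TAIR10, with the core TTGAC or its reverse complement GTCAA in capitals. They cover up to 100 bases on each side of the median summit and hold no annotated exon, and stretches next to a gene start end there. WRKY1 and WRKY28 are shown because their sites were open in every accession, with the highest mean pileups of the 5 genes open in all 6.
WRKY1, chr2:1717651-1717832, plus strand: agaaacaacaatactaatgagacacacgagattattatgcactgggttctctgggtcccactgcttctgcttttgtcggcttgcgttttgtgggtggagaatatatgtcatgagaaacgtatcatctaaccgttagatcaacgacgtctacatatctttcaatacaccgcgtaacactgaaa
WRKY28, chr4:10060303-10060503, plus strand: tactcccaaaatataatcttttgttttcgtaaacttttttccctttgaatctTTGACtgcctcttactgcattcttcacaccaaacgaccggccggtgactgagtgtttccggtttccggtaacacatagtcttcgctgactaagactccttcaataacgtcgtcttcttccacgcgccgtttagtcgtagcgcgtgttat
WRKY18 and WRKY60, partners in the group IIa, are shown because each stretch holds 3 cores close together.
WRKY18, chr4:15382005-15382205, plus strand: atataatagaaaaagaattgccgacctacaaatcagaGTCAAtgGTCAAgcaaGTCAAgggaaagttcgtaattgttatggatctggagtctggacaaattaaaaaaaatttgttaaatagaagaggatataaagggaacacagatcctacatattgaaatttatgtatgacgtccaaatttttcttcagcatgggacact
WRKY60, chr2:10628999-10629199, plus strand: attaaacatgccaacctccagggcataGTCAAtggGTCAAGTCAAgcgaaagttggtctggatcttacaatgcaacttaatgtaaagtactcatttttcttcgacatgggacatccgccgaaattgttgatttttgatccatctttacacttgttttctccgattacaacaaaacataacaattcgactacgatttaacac
WRKY11 and WRKY33 are shown as further promoters with more than 1 core.
WRKY11, chr4:15292454-15292654, minus strand: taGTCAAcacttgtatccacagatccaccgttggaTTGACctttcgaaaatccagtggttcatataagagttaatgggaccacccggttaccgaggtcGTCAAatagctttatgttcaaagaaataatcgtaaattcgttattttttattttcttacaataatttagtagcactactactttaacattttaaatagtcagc
WRKY33, chr2:16108090-16108234, plus strand: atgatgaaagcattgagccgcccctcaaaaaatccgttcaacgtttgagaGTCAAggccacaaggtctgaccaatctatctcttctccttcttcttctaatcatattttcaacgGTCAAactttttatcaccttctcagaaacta
WRKY53 and WRKY54, regulators of leaf senescence with opposite roles, are shown because the former holds 1 core and the latter none.
WRKY53, chr4:12394126-12394326, minus strand: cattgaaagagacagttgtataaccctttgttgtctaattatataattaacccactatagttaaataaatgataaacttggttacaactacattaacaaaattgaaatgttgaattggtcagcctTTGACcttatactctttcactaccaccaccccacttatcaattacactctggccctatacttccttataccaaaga
WRKY54, chr2:17002529-17002721, minus strand: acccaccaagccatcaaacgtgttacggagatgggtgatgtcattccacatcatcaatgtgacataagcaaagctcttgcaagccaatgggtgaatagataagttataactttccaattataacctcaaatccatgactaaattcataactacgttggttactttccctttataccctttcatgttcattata

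In the WRKY18 stretch the 3 cores were the same strand of the element, GTCAA, and lay in a cluster upstream of the summit, as did the 3 cores of WRKY60, of which a pair adjoined. The stretch of WRKY11 held 3 cores on both strands and that of WRKY33 held 2. The 301-bp window of WRKY28 held 2 cores, 1 of which lies in the stretch printed. The largest count of cores in a window was 5, at +149 of WRKY7, followed by 4 at -632 of WRKY8 and at +182 of WRKY57, where positions are counted in bp from the gene start. No core was found in the windows of 9 sites, among them WRKY1, WRKY2, WRKY48, WRKY50 and WRKY54.

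**Figure D1:**
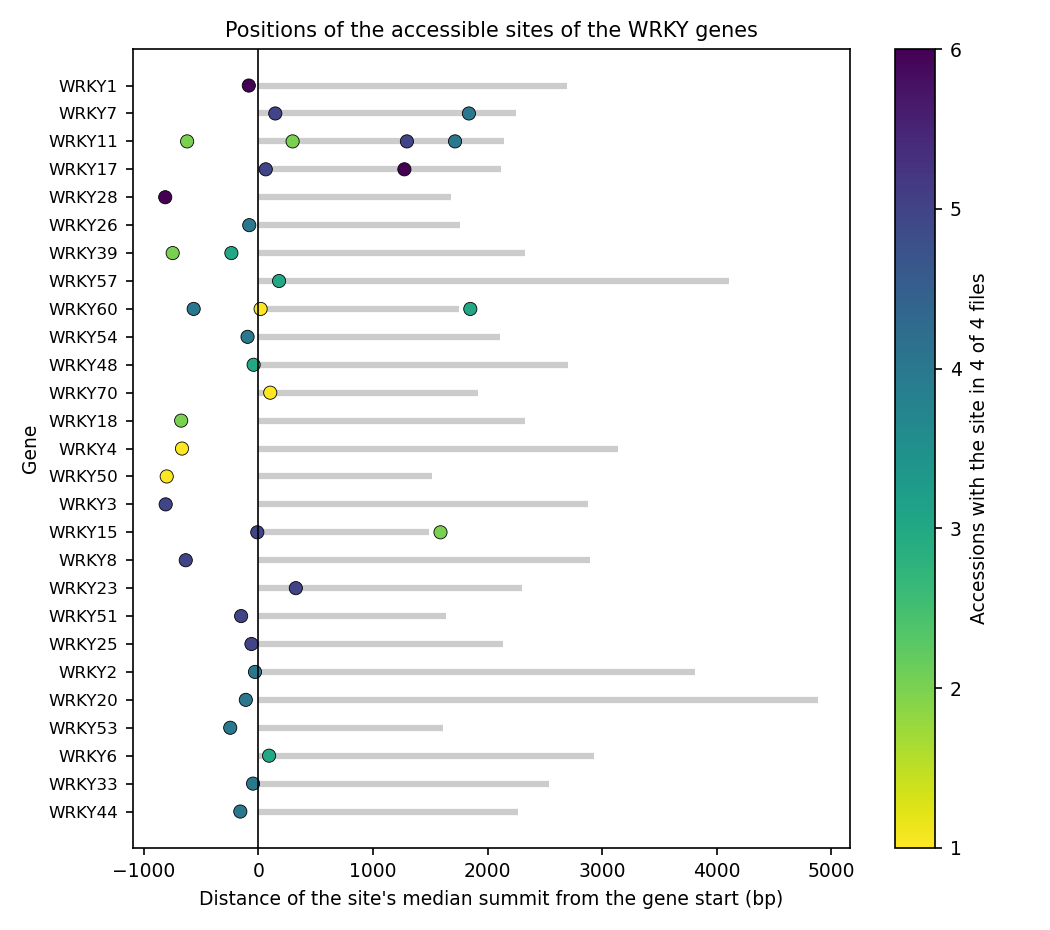
Position of the 36 sites of the WRKY genes that were open in at least 1 accession, as the distance of the median summit from the gene start in bp. Grey bars show the gene from its start to its end, and the colour of a point gives the number of accessions in which all 4 lists held the site. 22 sites lay upstream, 12 inside the gene and 2 past its end.

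Sites of the WRKY genes lay mostly in front of the genes. Of the 36 sites, 61.1% were upstream, 33.3% inside the gene and 5.56% past the end, beside 51.2%, 34.9% and 13.9% of 19226 pairs of a site and a gene over all genes. The share from 300 bp upstream to 100 bp past the start was 44.4%, beside 46.3%. Of the 12 sites inside the genes, 8 lay in the 5′ UTR, as at +95 of WRKY6, +328 of WRKY23 and +182 of WRKY57. Among these 8, the site at +105 of WRKY70 was placed by Col-0 positions, and lists with reference names put its summit upstream. WRKY11 and WRKY17 also held sites in introns, at +1297 and +1275. The median peak width was 247.5 bp and the median fold enrichment over the local background 5.41, beside 245 bp and 5.45 over all genes. Between accessions, the median summit moved by at most 50 bp in 20 of the 28 sites open in at least 2 of the 5 accessions other than Col-0 (71.4%), beside 59.8% of 10149 sites.

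The number of open WRKY genes differed widely between accessions. Of the 36 genes, 7 were open in Ad-0 (19.4%), where 14.2% of all genes were open. In Hi, 11 were open (30.6%), beside 14.0% of all genes. In En-2, 20 were open (55.6%), beside 28.6%. In Og, 23 were open (63.9%), beside 36.6%, and in Col-0 24 were open (66.7%), beside 40.4%. Mt had the most, with 27 genes (75%), beside 49.6%. The order of the accessions was that of all genes except for Ad-0 and Hi. The share of open genes among these 36 was above that of all genes in each of the 6. This did not hold for the 36 other WRKY genes, whose share was above that of all genes in Hi only. It was 16.7% in Hi, 13.9% in Ad-0, 22.2% in En-2, 36.1% in Og and in Col-0, and 41.7% in Mt. Per file, a peak was listed at 15 genes in every Ad-0 file, at 13 to 16 in Hi, 21 to 26 in En-2, 24 to 26 in Og and in Col-0, and 29 to 31 in Mt. No WRKY gene was open in untreated Col-0, beside 0.368% of all genes. The exception below that threshold was WRKY48, which had a peak at +1208 in replicate 3 and at +1341 in replicate 4 of the untreated samples, away from its leaf sites at -40 and +1514.

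**Figure D2:**
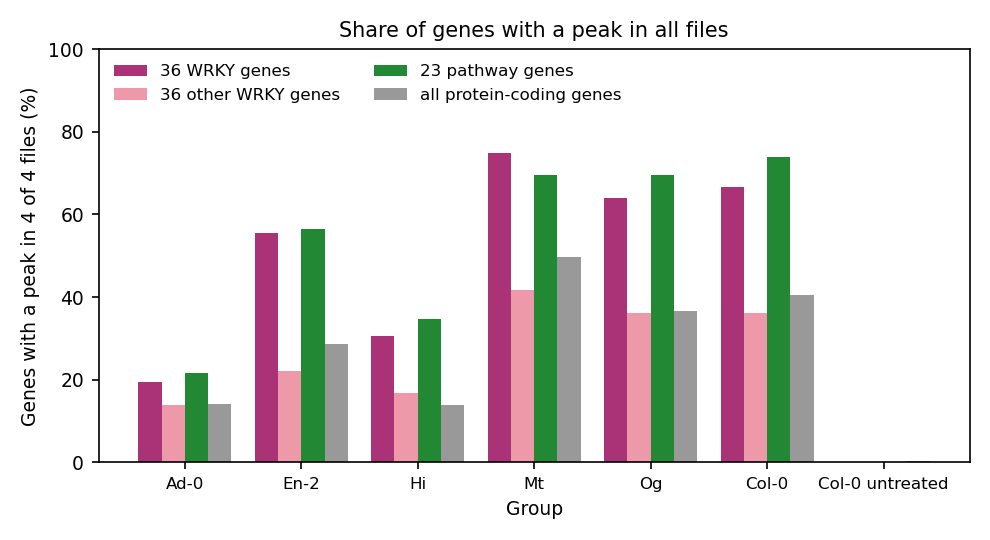
Share of genes with a peak in 4 of 4 files (%) for each group, for the 36 WRKY genes, 36 other WRKY genes, 23 genes of the WRKY pathway and all 27444 protein-coding genes. The 36 WRKY genes described here range from 19.4% in Ad-0 to 75% in Mt and stand above all genes in each accession. The 36 other WRKY genes stand above all genes in Hi only. All bars of untreated Col-0 are at 0 except 0.368% for all genes.

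**Figure D3:**
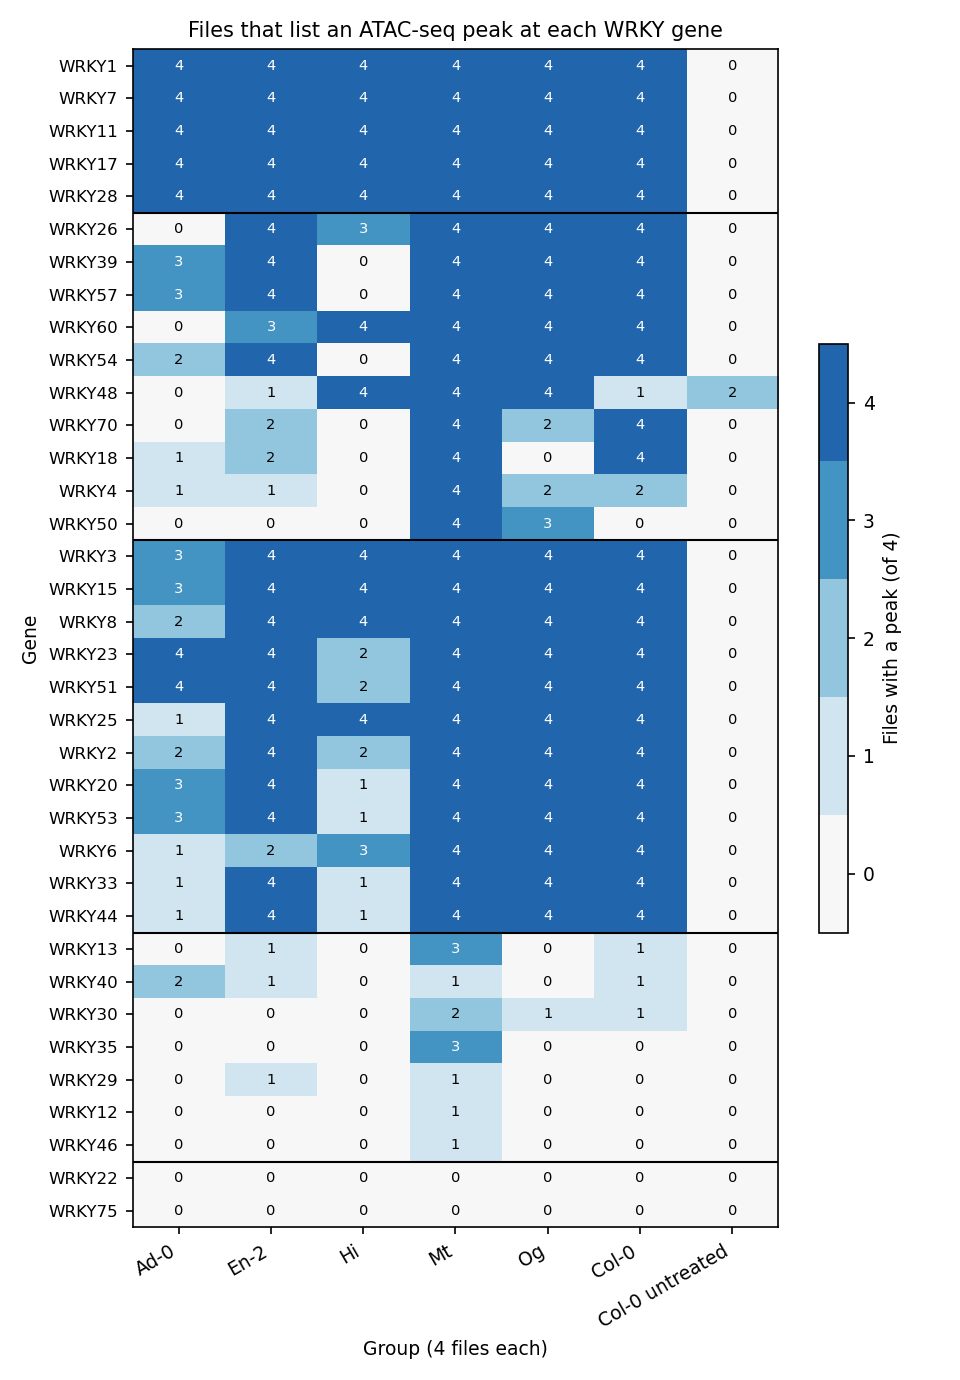
Number of files (of 4) that list a peak at each of the 36 WRKY genes, by group. Lines separate, from top to bottom, the 5 genes open in all 6 accessions, the 10 open in some only, the 12 open with partial listing elsewhere, the 7 listed in part of the files only and the 2 without a peak.

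Across accessions, 5 of the 36 genes were open in all 6 (13.9%), beside 8.60% of all genes: WRKY1, WRKY7, WRKY11, WRKY17 and WRKY28. A further 10 were open in at least 1 accession and without a peak in all 4 files of at least 1 other (27.8%), beside 35.8% of all genes. Another 12 were open in 3 to 5 accessions and listed in 1 to 3 files of the rest, 7 were listed in part of the files only, and 2 had no peak in any of the 24 files, beside 24.5% of all genes. Leaving out Ad-0 raised the number open in all accessions to 9 (25%), beside 12% of all genes, and leaving out Hi lowered the number open in some only to 6 (16.7%), beside 29.3%.

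The groups of the family held 1 to 10 of the 36 genes each, and differences between them were not tested. Of all genes, 49.6% were open in Mt, 40.4% in Col-0, 36.6% in Og and 28.6% in En-2. The share was 14.2% in Ad-0, 14.0% in Hi and 8.60% in all 6, and that in at least 1 accession was not computed. With so few genes per group, the counts below are not read as traits of the groups. In group IId, the calmodulin-binding repressors of defence and their relatives, 3 of 5 genes were open in all accessions (WRKY7, WRKY11 and WRKY17), WRKY15 was open in 5, and WRKY39 was open in 4 with none in Hi. In group I, whose members carry a WRKY domain pair, all 9 genes were open in at least 1 accession and 8 were open in En-2, Og and Col-0. In group IIe, which includes WRKY22 and WRKY29 downstream of the flagellin-activated MAP kinase cascade, none of 3 genes was open in any accession. Group III, with the senescence and salicylic acid regulators, had 3 of 5 genes open in Mt and Col-0 and 0 in Ad-0 and Hi. In group IIc, with 10 genes, WRKY28 was open in all accessions and 3 genes in some only, and 7 were open in Mt and 3 in Ad-0. In group IIa 2 of 3 genes were open in Mt and Col-0 and 0 in Ad-0 and En-2, and WRKY6, of group IIb, was open in Mt, Og and Col-0.

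WRKY1 (AT2G04880, chr2:1717833-1720526, plus strand), a group I factor also called ZAP1, had the highest mean pileup of the 5 genes open in all accessions. Its normalised pileup was 15.6 ± 2.09 (SD, n = 4 files) in Ad-0, 38.03 ± 0.552 in En-2, 31.8 ± 3.61 in Hi, 47.1 ± 6.43 in Mt, 37.1 ± 4.85 in Og and 30.7 ± 2.44 in Col-0. Ad-0 was low, and none of its files overlapped those of any other accession. The ratio of Mt to Ad-0 was 3.01 (95% exact interval 2.44 to 3.74), and like all such intervals here it covers counting error only. The summit lay 82 bp upstream of the start in a peak with a median width of 436.5 bp and a fold enrichment of 17.2.

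WRKY28 (AT4G18170, chr4:10061214-10062893, plus strand), an activator of the salicylic acid biosynthesis gene ICS1, was open at a distal site 811 bp upstream. Its normalised pileup was 21.0 ± 2.03 in Ad-0, 39.4 ± 4.11 in En-2, 25.4 ± 2.89 in Hi, 27.2 ± 3.77 in Mt, 26.3 ± 1.65 in Og and 31.7 ± 3.00 in Col-0. En-2 was highest, with files above all of those from the other accessions, but after scaling by the levels at the sites open in all 6 accessions Hi was highest at 33.7, followed by Col-0 at 30.6 and En-2 at 29.4. The unscaled ratio of En-2 to Ad-0 was 1.88 (1.53 to 2.30), the smallest range of the 5 genes.

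WRKY7 (AT4G24240, chr4:12571538-12573783, plus strand), a calmodulin-binding repressor of defence, was open inside the gene. Its strongest peak had a normalised pileup of 24.3 ± 1.497 in Ad-0, 42.0 ± 7.54 in En-2, 19.6 ± 2.99 in Hi, 28.1 ± 2.93 in Mt, 18.0 ± 2.02 in Og and 30.99 ± 1.29 in Col-0. This peak was broad, with a median width of 693.5 bp, and its summit lay near +1838, in a coding exon, in Ad-0, En-2, Hi and Col-0. In 3 of 4 files of Mt and of Og the summit was instead near +1510. The ratio of En-2 to Og was 2.33 (1.92 to 2.85). A weaker site at +149 in the 5′ UTR was open in 5 accessions and in 2 files of Hi.

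WRKY17 and WRKY11 are close relatives that act together as negative regulators of basal resistance. The strongest peak of WRKY17 (AT2G24570, chr2:10437353-10439469, minus strand) had a normalised pileup of 10.9 ± 2.64 in Ad-0, 18.5 ± 3.63 in En-2, 23.4 ± 4.27 in Hi, 15.2 ± 1.95 in Mt, 23.1 ± 2.14 in Og and 20.4 ± 0.929 in Col-0. That of WRKY11 (AT4G31550, chr4:15289788-15291934, minus strand) was 9.34 ± 1.88 in Ad-0, 15.3 ± 3.62 in En-2, 8.95 ± 1.09 in Hi, 20.4 ± 2.25 in Mt, 15.5 ± 2.06 in Og and 13.2 ± 1.16 in Col-0. The strongest peak of WRKY17 lay near +66 in every file of Ad-0, En-2, Hi and Col-0, but near the intronic site at +1275 in all 4 files of Mt and in 2 of Og. That of WRKY11 lay near +1297 in all files of Mt and Og and moved between sites from file to file in Ad-0, En-2, Hi and Col-0. The ratio was 2.16 (1.67 to 2.81) for Hi over Ad-0 at WRKY17 and 2.28 (1.72 to 3.03) for Mt over Hi at WRKY11. WRKY11 was spread over several sites, with 2.5 to 4.75 peaks per file in an accession, whereas open genes held 1.17 to 1.44 peaks on average over all genes.

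**Figure D4:**
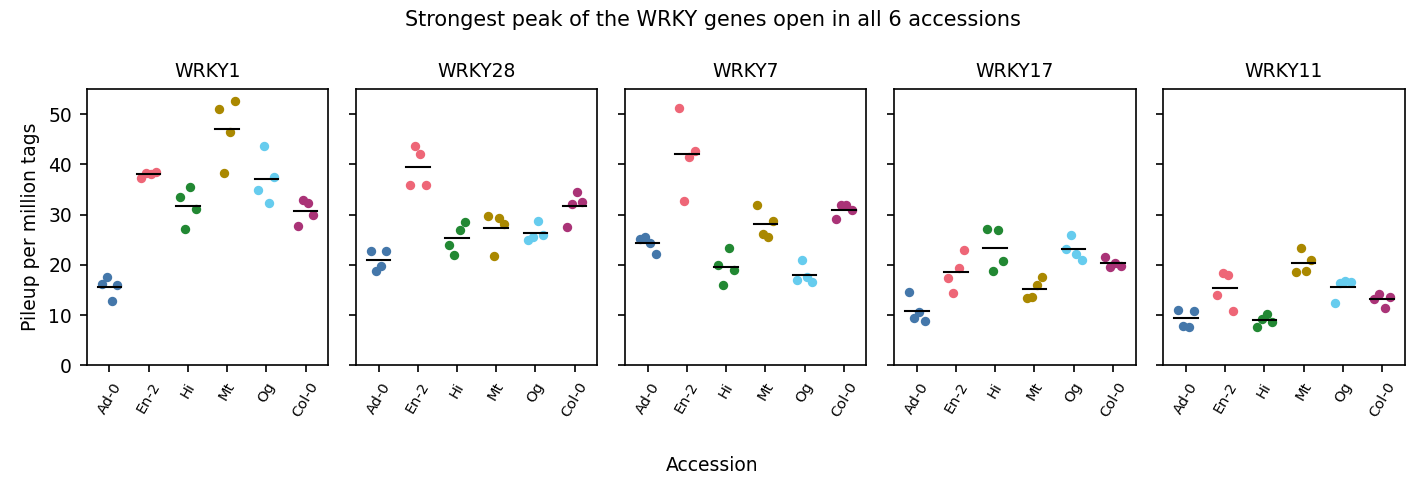
Normalised pileup (per 1000000 tags) of the strongest peak in each file for the 5 WRKY genes open in all 6 accessions, with the mean over 4 files as a black line. Before any scaling by shared sites, Ad-0 lies lowest at WRKY1 (15.6) and En-2 highest at WRKY28 (39.4) and WRKY7 (42.0).

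A 2-fold range between the highest and the lowest accession was found at 4 of the 5 genes, all but WRKY28, beside 85.4% of the 2360 genes open in all 6 accessions. The median ratio was 2.28 for the 5 WRKY genes and 2.61 for all 2360 genes, of which 48% were lowest in Ad-0 and 43.9% in Hi. At the 2121 sites open in all 6 accessions the median log2 ratio to the geometric mean of the accessions was -0.44 in Ad-0, 0.42 in En-2, -0.41 in Hi, 0.36 in Mt, 0.03 in Og and 0.05 in Col-0. After scaling by these ratios WRKY17 alone had a 2-fold range, with a ratio of 2.63 between Hi and Mt, beside 35.6% of all genes. That ratio compares different places in the gene, since the strongest peak of WRKY17 lay near +66 in Hi and near +1275 in Mt. The scaled ratio was 1.99 for WRKY1, with Ad-0 still lowest and Hi in place of Mt highest. It was 1.88 for WRKY7, between Ad-0 and Og in place of En-2 and Og, and 1.58 for WRKY28, between Hi and Mt in place of En-2 and Ad-0. For WRKY11 it was 1.39, between Mt and En-2 in place of Mt and Hi. That ratio also compares different places, since the strongest peak of WRKY11 lay near +1297 in Mt and at other sites in En-2. At WRKY7 the summits differed within the broad peak, near +1838 in Ad-0 and near +1510 in 3 files of Og.

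The 10 genes open in some accessions only were missing mostly from Hi and Ad-0. These accessions also had the lowest shares of open genes over all genes, 14.0% and 14.2%. The split over accessions was not computed for all genes and is not read as a trait of the WRKY genes. The 10 genes gave 15 pairs of a gene and an accession without a peak. Of these pairs 7 fell in Hi, 5 in Ad-0, 1 each in En-2, Og and Col-0 and 0 in Mt. To ask whether the lists could have held the missing peak, the median pileup of the open accessions was scaled to the tags of the accession without it. It was set against the detection level, the highest of the 5th percentiles of listed pileups in the 4 files there. The implied pileup reached this level in 14 of 15 pairs, and each of the 10 genes had such a pair (34.8% of all genes). With the ratios at shared sites taken into account it did so in 8 pairs. These lay at 5 genes, WRKY26, WRKY48, WRKY50, WRKY54 and WRKY60, beside 25.6% of all genes. WRKY18 in Og, at 12.2 scaled tags, fell below the level of 13 but above the 11 of replicates 2 and 4.

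WRKY54 (AT2G40750, chr2:17000419-17002528, minus strand), a negative regulator of senescence, had the highest level of the 10. Its normalised pileup was 12.8 ± 1.85 in En-2, 22.1 ± 3.25 in Mt, 8.60 ± 1.21 in Og and 6.32 ± 1.23 in Col-0, at a site 93 bp upstream. It was 6.19 and 6.24 in the 2 files of Ad-0 that listed it, and no file of Hi did. The level of the open accessions implied 23.6 tags in Hi, or 14.9 after scaling, against a detection level of 13. WRKY70 (AT3G56400), its partner in senescence, was open in Mt at 9.56 ± 1.52 and in Col-0 at 4.66 ± 0.790, and without a peak in Ad-0 and Hi. No site of WRKY70 was open in both Mt and Col-0. The site at +105 was listed in 4 files of Col-0 and 1 of Mt. That at +986 was listed in 3 files of Mt and 2 of Col-0. Around WRKY70 the local shift of the Col-0 positions was -106 bp. In the 1 file each of Mt, Og and En-2 that listed the +105 site, its summit lay at -20, -21 and -22, upstream of the start.

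WRKY18 and WRKY60, of group IIa, act with WRKY40 in responses to pathogens and abscisic acid. WRKY60 (AT2G25000, chr2:10629662-10631413, plus strand) was open 563 bp upstream with a normalised pileup of 8.83 ± 2.18 in Hi, 7.72 ± 1.40 in Mt, 9.42 ± 0.471 in Og and 8.18 ± 0.909 in Col-0. It was listed in 3 files of En-2, with a mean of 7.66, and in none of Ad-0. A stronger site of WRKY60 past the gene end, at 20.6 ± 5.42 in Mt and 14.3 ± 2.09 in Og, lay 19 bp from the start of AT2G25010. WRKY18 (AT4G31800, chr4:15382777-15385100, plus strand) was open 672 bp upstream in Mt at 6.604 ± 1.58 and in Col-0 at 4.34 ± 0.579, and without a peak in Hi and Og. It was listed in 1 file of Ad-0 and 2 of En-2. The Col-0 pileups were 18 to 24 tags, near the detection level of 19 there. In Hi the implied pileup was 12.8 tags before scaling, below the detection level of 13. WRKY40 was open in no accession and was listed in 2 files of Ad-0 and 1 each of En-2, Mt and Col-0.

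**Figure D5:**
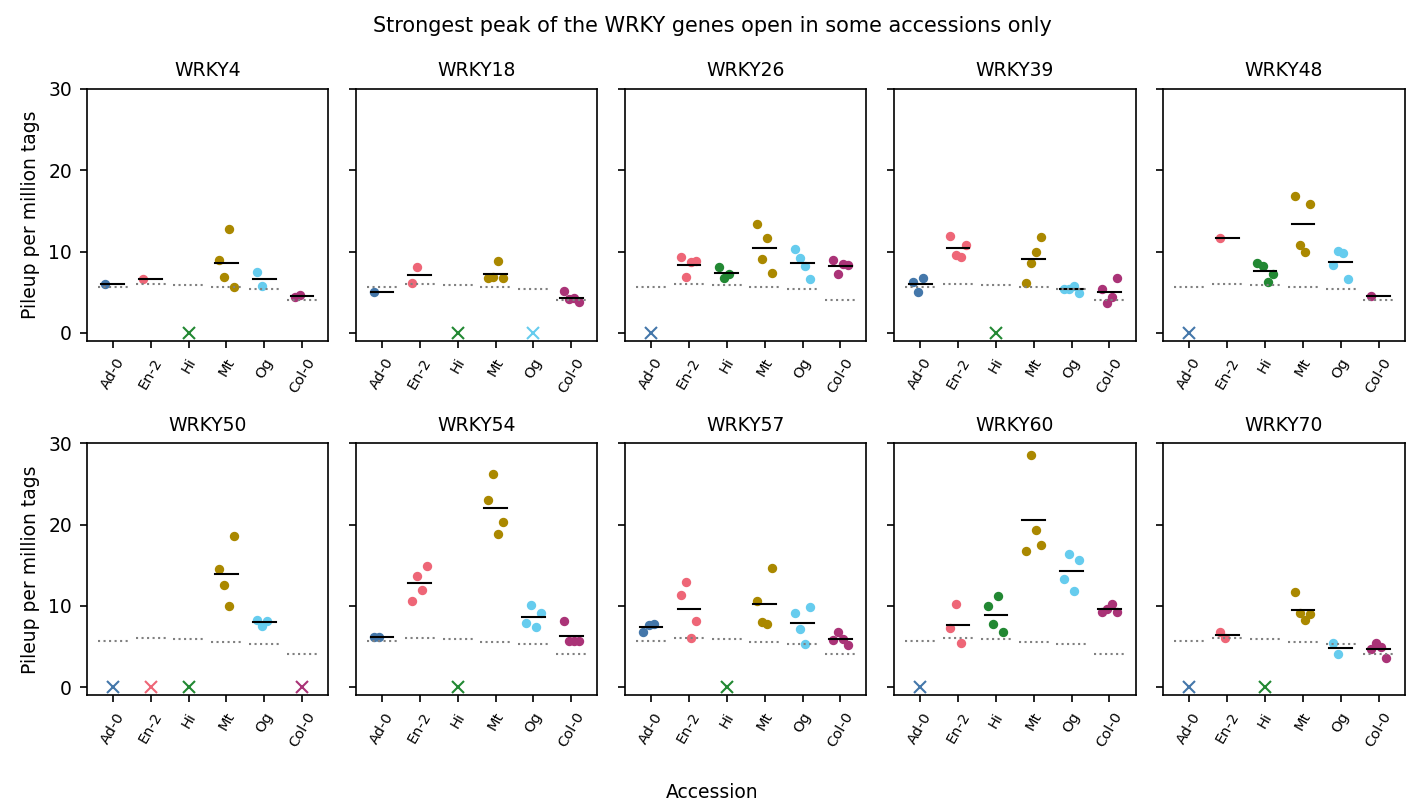
Normalised pileup (per 1000000 tags) of the strongest peak in each file that listed one, for the 10 WRKY genes open in some accessions only. Black lines give the mean over the listing files, and crosses at 0 mark accessions in which no file listed a peak. Dotted lines give the detection level of the accession, 4.07 to 6.06 per 1000000 tags. It is the highest of the 5th percentiles of listed pileups in its 4 files.

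WRKY50 (AT5G26170, chr5:9146879-9148391, minus strand), a repressor of jasmonate responses, was open in Mt alone, like WRKY4. Its site gave normalised pileups of 14.6, 12.6, 9.97 and 18.6 in the files of Mt, and 8.30, 7.55 and 8.19 in 3 files of Og. No file of Ad-0, En-2, Hi or Col-0 held a peak there. The level in Mt implied 65.1 tags in Col-0, or 52.6 after scaling, against a detection level of 19. The summit, 798 bp upstream of WRKY50, lies inside the neighbouring gene AT5G26180, 116 bp from its start, so the peak is nearer to that gene. WRKY51, the related repressor, was open in 5 accessions at a site 149 bp upstream, at 9.48 ± 1.04 in Ad-0 and 20.1 ± 1.39 in Mt.

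WRKY48 (AT5G49520), a repressor of basal defence, was open 40 bp upstream at 7.60 ± 1.06 in Hi, 13.4 ± 3.46 in Mt and 8.70 ± 1.60 in Og. A single file each of En-2, at 11.6, and of Col-0, at 4.58, listed it, and none of Ad-0. WRKY26 (AT5G07100), a group I gene of heat responses, was open at 8.40 ± 1.08 in En-2, 10.4 ± 2.70 in Mt, 8.60 ± 1.60 in Og and 8.29 ± 0.770 in Col-0, in 3 files of Hi and in none of Ad-0. Its files overlapped between all accessions that listed it, and its site lies inside the neighbouring gene AT5G07090. WRKY39 (AT3G04670), also linked to heat, and WRKY57 (AT1G69310), linked to drought tolerance, were open in En-2, Mt, Og and Col-0. Both were listed in 3 files of Ad-0 and in none of Hi. Their highest levels were 10.4 ± 1.22 in En-2 and 10.3 ± 3.22 in Mt. In Og no single site of WRKY39 was open, since those at -234 and -746 were listed in 2 files each. Its normalised pileup there, 5.38, was at the detection level of Og, 5.38. The WRKY57 site at +182 was listed in 3 files of En-2, and the remaining file held a peak at -792. WRKY4 (AT1G13960), which acts in resistance to necrotrophic fungi, was open in Mt at 8.55 ± 3.11 and absent from the lists of Hi.

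The 12 genes open with partial listing elsewhere were each open in Mt, Og and Col-0. Among the defence regulators, WRKY33, a substrate of MPK3 and MPK6 that drives camalexin synthesis, ranged among open accessions from 5.62 ± 1.08 in Col-0 to 11.8 ± 1.46 in En-2, which after scaling stood at 8.79 beside 8.81 in Og. WRKY8, which acts in defence and salt stress, reached 31.3 ± 4.54 in Mt against 13.4 to 17.5 in the 4 other open accessions. Before scaling its Mt files lay above those of every other accession, and after scaling Mt stood at 24.5 beside 19.7 in Hi. WRKY53, a positive regulator of leaf senescence, ranged from 7.55 ± 0.709 in Col-0 to 17.6 ± 2.53 in Mt. After scaling WRKY53 stood at 13.7 in Mt, beside 12.9 in the 3 files of Ad-0 that listed it. WRKY25, of the MAP kinase 4 pathway, ranged from 12.3 ± 3.86 in En-2 to 23.9 ± 1.91 in Mt, which after scaling stood at 18.7 beside 18.8 in Hi, at a site inside the neighbouring gene U2B''. WRKY15, which acts in cell expansion and osmotic stress, was highest in Og at 17.5 ± 1.81, against 9.76 to 12.1 in the 4 other open accessions. After scaling WRKY15 stood at 17.1 in Og beside 14.8 in Hi. For the remaining genes, the means of the open accessions ranged from 8.67 to 14.6 for WRKY2, a regulator of seed germination, and from 9.28 to 14.5 for WRKY3, a relative of WRKY4. They ranged from 8.19 to 13.2 for WRKY6, which acts in senescence and phosphate homeostasis, and from 9.22 to 15.98 for WRKY23, an auxin-responsive factor. For WRKY44, which acts in trichome and seed coat development, they ranged from 6.43 to 8.84, and for the group I gene WRKY20 from 7.04 to 12.9.

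Peaks of the WRKY genes listed in 1 to 3 of 4 files were weak, with a median pileup of 14 tags at the 19.6th percentile of their own list, against 27 tags and the 67.3rd percentile for peaks listed in all 4.

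The remaining 9 genes were open in no accession, and the share of all genes open in no accession was not computed. WRKY22 (AT4G01250, chr4:522530-524249) of the flagellin pathway and WRKY75 (AT5G13080, chr5:4149738-4151201) of the phosphate starvation response had no peak in any of the 24 files. WRKY12 and WRKY46 were listed in 1 file each, WRKY35 in 3 files of Mt, WRKY30, an early-induced stress factor, in 4 files of 3 accessions, and WRKY29, the partner of WRKY22, in 2. WRKY12 and WRKY13 act in stem development and flowering time, and WRKY13 was listed in 3 files of Mt and 1 each of En-2 and Col-0. Coverage between peaks was not used here, so the depth behind a missing peak is unknown.

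Genes that act upstream or downstream of the WRKY factors were compared with them as a list of 23. The number open was 5 in Ad-0 (21.7%, beside 14.2% of all genes), 13 in En-2 (56.5%, beside 28.6%), 8 in Hi (34.8%, beside 14.0%), 16 in Mt (69.6%, beside 49.6%), 16 in Og (69.6%, beside 36.6%) and 17 in Col-0 (73.9%, beside 40.4%). BAK1, a co-receptor kinase, MPK3, a MAP kinase, and SIB1 and SIB2, proteins that bind WRKY33, were open in all 6 accessions. These make up 17.4% of the list, beside 8.60% of all genes open in all 6. MKS1, a substrate of MAP kinase 4, and EDS5, which exports a salicylic acid precursor, had no peak in any file, as did 24.5% of all genes. ICS1, which makes a salicylic acid precursor, and MPK4, which encodes MAP kinase 4, were open in no accession but listed in part of the files. A peak was listed at ICS1 in 3 files of Mt, 2 of En-2 and 1 each of Og and Col-0. At MPK4 it was listed in 3 files each of Mt and Og. PR1, a salicylic acid marker, and PAD3, the last enzyme of camalexin synthesis, were open in Mt alone. Their normalised pileups there were 6.46 and 6.74, beside a detection level of 5.62, and PR1 was also listed in 1 file of Og. The seed gene SESA1 was likewise open in Mt alone, at 8.72.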

How the data were processed

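ATAC-seq peak lists of leaf samples were used, 28 of 96 files, in the groups the labels give. The authors mapped reads with Bowtie 1.2.2, per the labels against TAIR10, and called peaks in each file with MACS2 2.1.2. Per the file headers no control was used, all duplicates were kept and the q-value cutoff was 0.05. The deposited pileup is the tag height at the summit, with no scaling between files. The deposited fold enrichment is the ratio of the pileup to the local background, and significance is deposited as -log10 values, of p and of q. According to the methods each accession was mapped to its own genome, whereas the lists of Ad-0, En-2, Hi, Mt and Og carry reference names.

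Summits were linked to genes of the RefSeq annotation of TAIR10.1, whose nuclear chromosome lengths hold all positions of the lists with reference names. Sequences come from that assembly. Calculations used Python 3.11.15, NumPy 2.4.6 and SciPy 1.17.1, figures matplotlib 3.10.9, and the code was tested on simulated data. Lists of 1 accession were compared at summits within 50 bp where both pileups together reached 40 tags. The untreated files had indexes of 0.745 to 4.88 and are given by file. Ratio intervals are exact (Clopper-Pearson, 95%) and cover counting error only. The genes named in full were those open in all accessions (up to 10), in some only, or with no peak, and others are given by range. The members and lists were chosen with earlier results of these data known. Alternatives were a q-value cutoff of 0.001, 1 of 4 files, a promoter window, summits in or nearest to other genes left out, each replicate or an accession left out, scaled pileup, and a fold of 1.5.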

Additional observations from a re-analysis of the deposited data

Results flagged for a closer look

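Each value below came from a group of 4 files in which a single file lay far from the other 3. Of 66 groups examined, 4 had such a file, where chance gives about 3. Replicate 4 of Col-0 listed a peak at 24 WRKY genes, against 26 in each other file. At WRKY11, replicate 1 of Og had a strongest peak with a normalised pileup (per 1000000 tags) of 12.4, against 16.4 to 16.8. At WRKY18, replicate 3 of Mt had 8.86, against 6.73 to 6.85. At WRKY54, replicate 1 of Col-0 had 8.15, against 5.67 to 5.76.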

How the results depend on the processing

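Of 105 counts recomputed under the alternatives, 87 stayed within 1.5 times the value reported, among them all counts with a q-value cutoff of 0.001 and all with a replicate left out. With the promoter window, from 500 bp upstream to 100 bp past the start, the genes open fell to 3 in Ad-0 (8.33%, near the 7.57% of all genes), 13 in En-2 (36.1%, beside 16.1%), 5 in Hi (13.9%, beside 7.84%), 14 in Mt (38.9%, beside 29.6%), 13 in Og (36.1%, beside 20.9%) and 14 in Col-0 (38.9%, beside 23%), with 1 open in all (WRKY1), 6 in some only and 1 with a 2-fold range. With a peak in at least 1 of 4 files, 23 genes counted in Ad-0, 20 in Hi, 17 in all accessions, 17 in some only and 1 in untreated Col-0. The shares of all genes were not computed for this rule, nor for the promoter-window counts in all, in some only and with a 2-fold range. These counts are therefore not read as traits of the WRKY genes. Scaled pileups left 1 gene with a 2-fold range. Without Hi, 6 genes were open in some only. The alternatives chosen after seeing the data were the accessions Ad-0 and Mt left out, where 9 genes were open in all without Ad-0, and the scaled detection level, where 5 genes were open in some only. WRKY26 and WRKY50 were open in 0 accessions once summits inside another gene were left out, and WRKY50 also once summits nearest to another gene start were. No paired analysis was possible because the results come from no test, each accession being 1 sample. The detection level was 9 to 19 tags, and the lowest listed pileups were 6 to 14 tags. A missing weak peak therefore cannot be told apart from one too low to be listed.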

Other observations

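Of the 36 other WRKY genes, 5 were open in Ad-0 (13.9%, beside 14.2% of all genes), 8 in En-2 (22.2%, beside 28.6%), 6 in Hi (16.7%, beside 14.0%), 15 in Mt (41.7%, beside 49.6%), 13 in Og (36.1%, beside 36.6%) and 13 in Col-0 (36.1%, beside 40.4%). WRKY32, WRKY43 and WRKY47 were open in all 6 accessions (8.33%, beside 8.60% of all genes). RRS1, which joins a WRKY domain to an immune receptor, was open in Mt, Og and Col-0 and had no peak in Ad-0, En-2 and Hi. WRKY41 was open in every accession but En-2, where 1 file listed it. A further 13 (36.1%) had no peak in any file, beside 24.5% of all genes.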
